A study of Arabidopsis thaliana with 6 samples.

Results

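The genes described here are 57 loci of Arabidopsis thaliana that make, break down, move or sense starch, sucrose and trehalose phosphate. They were chosen by locus identifier from pathway knowledge, with earlier results of these data already known. They come from 27655 loci in the deposited leaf RNA-seq tables and fall into 8 role groups. Of the 57, 56 were measured, which here means at least 20 estimated counts over both libraries, and 1, the sucrose synthase SUS6 (AT1G73370), was not, with 1 count in each library. The RNA came from rosette leaves 5 and 6, fully expanded and without visible yellowing, of Col-0 wild type and of jmj16-1 (SAIL_535_F09), a single insertion allele in the Col-0 background. After 6 days on MS plates the plants were moved to soil and kept at 22 °C in long days (16 h light). Their age is given as 4 weeks in one label and 5 weeks in another, and neither the hour of harvest nor the number of plants pooled is stated. Each genotype has 1 library (10643186 estimated counts for wild type, 13844284 for jmj16), so none of the differences below could be tested against the spread between plants and they carry no p-value. The 4 chromatin immunoprecipitation samples of the series were not analysed here.

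Leaf starch is built in the chloroplast by day from ADP-glucose, which ADP-glucose pyrophosphorylase makes, and starch synthases, branching enzymes and isoamylases shape the granule. At night, dikinases phosphorylate the granule surface, beta-amylases release maltose, and maltose leaves the plastid to feed cytosolic sucrose synthesis. Sucrose is then loaded into the phloem through SWEET and SUC transporters or cleaved by invertases and sucrose synthases. Trehalose 6-phosphate reports sucrose status, and the kinase SnRK1 and hexokinase sense low energy and glucose, respectively. Many transcripts of starch breakdown follow the time of day.

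JMJ16 itself (AT1G08620), a histone H3K4 demethylase gene, had 188 estimated counts in wild type and 168 in the library labelled jmj16, a log2 ratio of -0.63 (-0.94 to -0.33), or 0.37 after the length correction. The label was therefore not checked by this gene, and the library is called jmj16-labelled. Leaf markers (RBCS1A, CAB2, CA1) summed to 17541 TPM in wild type against 11897 TPM in the jmj16-labelled library, and the root hair marker COBL9 had 1 and 0 counts. In bulk leaf RNA, fewer cells of a type and less RNA per cell cannot be told apart. Across all 17151 measured genes, long transcripts had lower ratios in the jmj16-labelled library: by deciles of length, the median log2 ratio ran from 0.38 for the shortest to -0.87 for the longest. The genes of starch and sugar metabolism are long, with a median of 2431 nt against 1638 nt over all measured genes. Ratios that a result turns on are therefore also given after subtraction of that trend, called length-corrected. What makes ratios fall with length was not tested.

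The summed level of the 57 genes hardly differed between the libraries, while role group sums and single members of several families differed more. It was 3443 TPM (a level scaled for transcript length and library depth) in wild type against 3306 TPM in the jmj16-labelled library. By role group, the ratio of summed TPM, jmj16-labelled over wild type and not length-corrected, ran from 0.50 to 1.31. It was 0.50 for sucrose synthesis, 0.63 for trehalose phosphate synthases, 0.64 for sucrose cleavage, 0.76 for starch breakdown and 0.79 for starch synthesis. It was 0.98 for plastid envelope transporters, 1.22 for hexokinase and SnRK1 and 1.31 for sugar transporters. Some of these sums rest largely on 1 gene. VI2 held 82.0% of the sucrose cleavage TPM in wild type against 58.4% in the jmj16-labelled library. APE2 held 95.7% and 96.1% for the envelope transporters, and SWEET11 40.4% and 52.6% for the sugar transporters. Of the 56 measured genes, 5 were higher in the jmj16-labelled library (8.93%, against 7.22% of all measured genes), 12 were lower (21.4%, against 10.6%) and 39 were neither. Higher or lower means a difference of at least 2-fold in scaled estimated counts whose exact 95% counting interval excludes 1. Below, the wild type value of a pair comes first, the range in parentheses after a fold or log2 ratio is that interval, and log2 ratios are of scaled counts, jmj16-labelled over wild type. The higher genes were AMY1, GPT2, CWINV1, STP4 and SUC1, and the lower ones TPS11, STP1, BAM3, SS3, GWD1, SS4, PHS1, SPS4F, TPS1, PWD, VI2 and TPS9. After length correction 8 were higher (14.3%, against 6.21% of all measured genes) and 7 were lower (12.5%, against 6.64%). All 5 higher genes and 7 of the 12 lower ones (TPS11, BAM3, STP1, PHS1, SS3, SS4 and VI2) then passed in the same direction. GWD1, PWD, SPS4F, TPS1 and TPS9 did not, and GBSS1, BAM1 and SUS1 joined the higher genes. These shares of all measured genes are the background for every count by role group or marker list below. The background split depends on the scale: over all measured genes 1239 were higher and 1825 lower as reported, 1489 and 1566 with total-count scaling, and 941 and 747 on log2(TPM + 1).

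The median log2 ratio of the 56 genes was -0.33 (exact 95% interval of the median over genes, -0.49 to -0.09), beside 0.02 for all measured genes, and it was 0.01 after length correction. That interval treats the genes as independent random draws, which a chosen list read from the same 2 libraries is not. It describes the list and gives no inference about the genotype. Of the 28 longer genes 10 were lower and 0 higher, while of the 28 shorter ones 2 were lower and 5 higher. The share of all measured genes of like length past the rule was not counted. Over all measured genes, the median log2 ratio was -0.40 in length decile 9 (2395 to 2992 nt) and -0.87 in decile 10, the longest. Across the 56 genes the log2 ratio and transcript length had a Spearman rho of -0.58, and across all measured genes of -0.44, as a description of values that share the same 2 libraries. Precision from counting was good for most genes, with at least 100 counts over both libraries in 52 of them. Intervals cover counting error only and leave out variation between plants. They also treat reads as independent, although reads are not independent molecules.

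**Figure D1:**
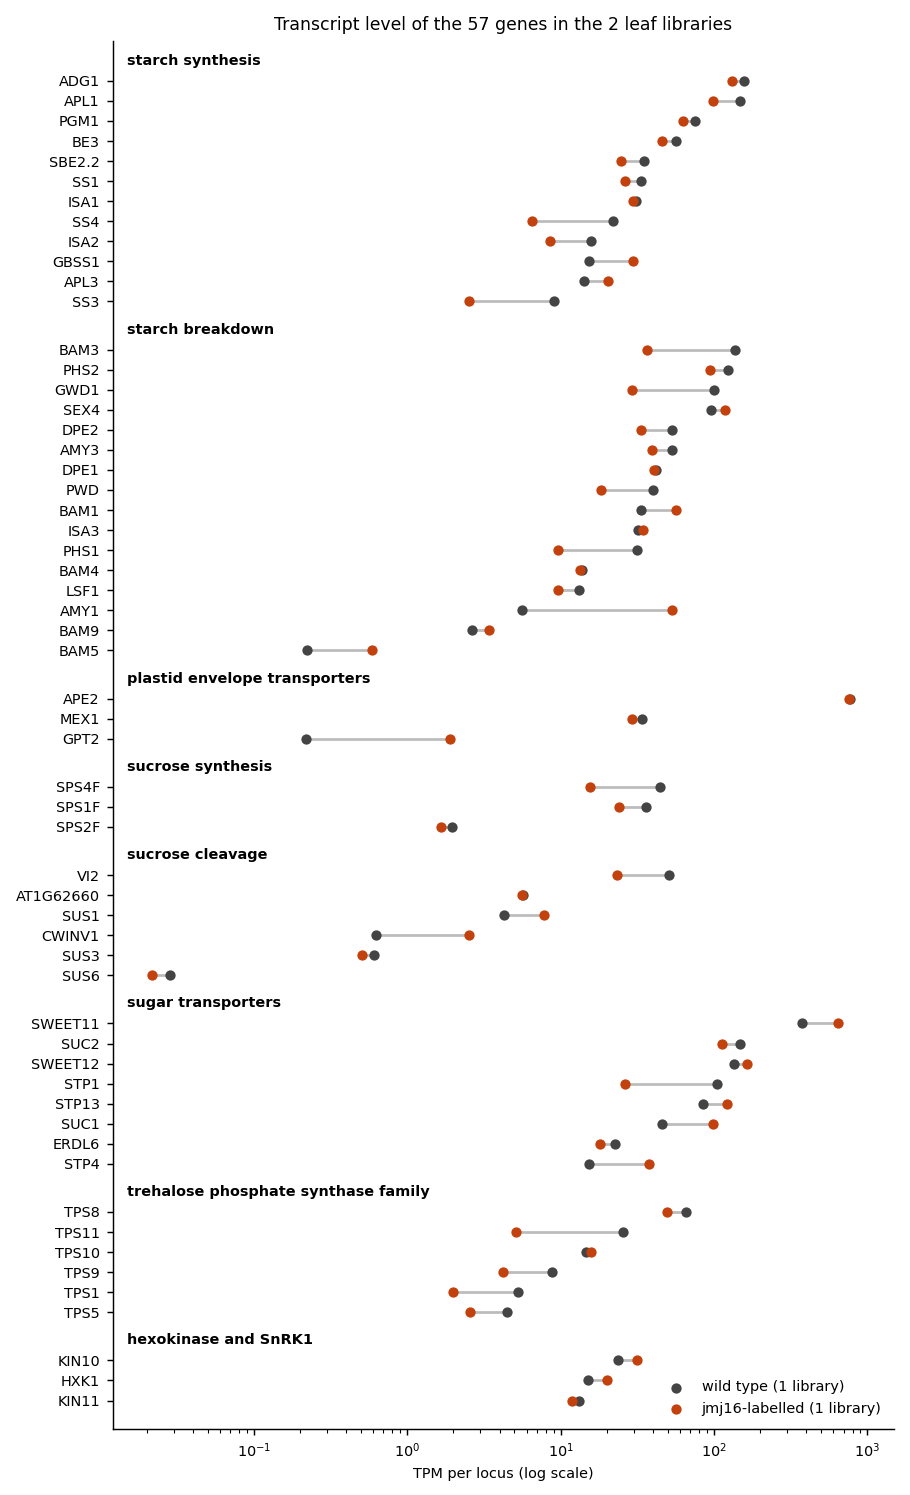
TPM of each of the 57 loci on a log axis, wild type in grey and jmj16-labelled in orange, 1 library each, grouped by role. Wide gaps are at AMY1 (5.62 and 53.5 TPM), TPS11 (25.6 and 5.11 TPM), STP1 (104 and 26.3 TPM) and BAM3 (137 and 36.6 TPM), while APE2 hardly moves (766 and 756 TPM).

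**Figure D2:**
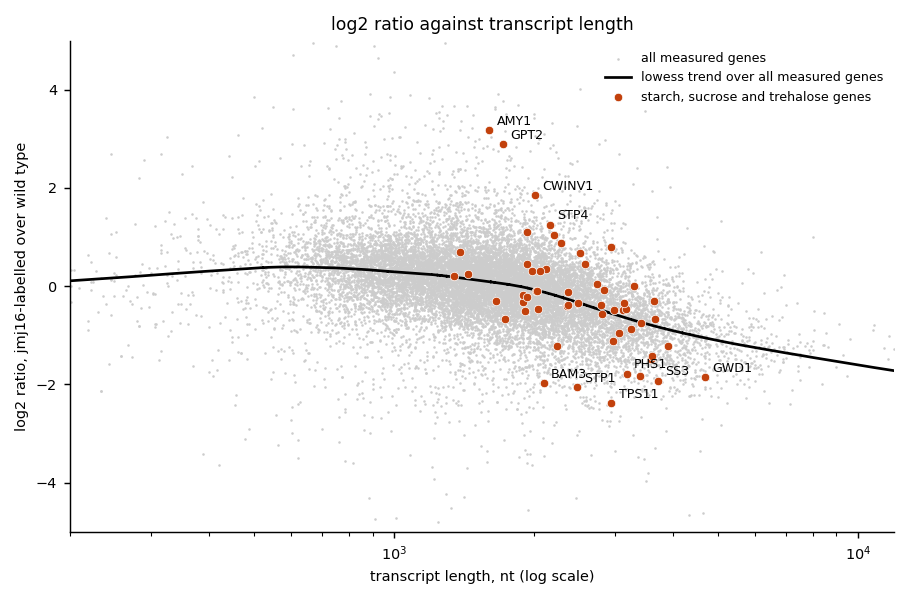
log2 ratio of estimated counts, jmj16-labelled over wild type, against transcript length on a log axis. Grey points are measured genes of the whole table, the black line is their lowess trend, and orange points are the 56 measured starch and sugar genes; 32 genes beyond 5 on the log2 axis and 42 outside the plotted lengths are not drawn. GWD1 and SS3 lie at the long end, where the trend falls, and below it, whereas AMY1 and GPT2 lie far above it and BAM3, STP1 and TPS11 far below it.

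Among 12 genes of starch synthesis, 2 were lower, 0 higher and 10 neither, and both lower genes encode starch synthases. SS3 (AT1G11720), which elongates amylopectin chains, had 393 estimated counts in wild type against 143 in the jmj16-labelled library, or 9.08 and 2.53 TPM. That made it 3.80-fold lower (3.14 to 4.65), with a length-corrected log2 ratio of -1.10. SS4 (AT4G18240), the synthase that starts new granules, had 866 estimated counts in wild type against 337 in the jmj16-labelled library, or 22.1 and 6.51 TPM, and was 3.56-fold lower (3.14 to 4.05), or -1.10 on the log2 scale after length correction. GBSS1 (AT1G32900), the granule-bound synthase that makes amylose, lay on the opposite side, with 390 and 990 counts and a log2 ratio of 0.87 (0.70 to 1.05). It was short of 2-fold as measured and past it after length correction (1.09). SS1 (AT5G24300), a soluble synthase, had a log2 ratio of -0.41 (-0.55 to -0.28). Of the summed TPM of SS1, SS2, SS3, SS4 and GBSS1, the share of GBSS1 was 16.1% in wild type against 37.9% in the jmj16-labelled library, that of SS4 23.2% and 8.37%, and that of SS1 35.1% and 34%.

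The most read genes of starch synthesis encode ADP-glucose pyrophosphorylase, the enzyme of the committed step, and none of them passed the rule. ADG1 (AT5G48300), its small subunit, had 3231 estimated counts in wild type against 3569 in the jmj16-labelled library, or 157 and 131 TPM, a log2 ratio of -0.33 (-0.40 to -0.26). APL1 (AT5G19220), the main large subunit of leaves, had 2743 and 2390 counts, or 148 and 97.9 TPM, a log2 ratio of -0.67 (-0.75 to -0.59) that length correction left at -0.72. APL3 (AT4G39210), a large subunit known to be induced by sugar, went the other way at 0.46 (0.25 to 0.66). APL3 held 8.57% of the TPM of the 4 large-subunit genes in wild type against 16.7% in the jmj16-labelled library. PGM1 (AT5G51820), the plastid phosphoglucomutase upstream of this step, had a log2 ratio of -0.34 (-0.42 to -0.25), or -0.002 after length correction. The branching enzyme genes BE3 (AT2G36390) and SBE2.2 (AT5G03650) had -0.37 and -0.56, and the isoamylase genes ISA1 (AT2G39930) and ISA2 (AT1G03310), whose products act together in trimming amylopectin, -0.08 and -0.96. ISA2 was the nearest miss, and length correction took it to -0.35. The others were at 0.12, -0.06 and 0.42 after the correction.

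Starch breakdown held the largest single difference in either direction within its 16 genes, of which 1 was higher, 4 lower and 11 neither. AMY1 (AT4G25000), an alpha-amylase that is secreted and so lies outside the chloroplast, had 95 estimated counts in wild type against 1195 in the jmj16-labelled library. It was 9.03-fold higher (7.36 to 11.3), from 5.62 to 53.5 TPM, and its length-corrected log2 ratio was 3.08. AMY3 (AT1G69830), the alpha-amylase inside the chloroplast, had a log2 ratio of -0.49 (-0.58 to -0.40), or 0.14 after length correction. In wild type AMY3 had the higher level of the pair (53.0 TPM), in the jmj16-labelled library AMY1 did (39.5 TPM for AMY3). These levels are not length-corrected, and the transcripts differ in length, with 3124 nt for AMY3 and 1606 nt for AMY1. The order of the pair after length correction was not computed.

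The beta-amylases, which cut maltose from glucan ends, had a different leading member in each library. BAM3 (AT4G17090), the main enzyme of nightly starch breakdown in mesophyll, had 3162 estimated counts in wild type against 1118 in the jmj16-labelled library, or 137 and 36.6 TPM, and was 3.92-fold lower (3.66 to 4.20). Its transcript has 2103 nt, below the median of the 56 genes and above that of all measured genes, and the corrected log2 ratio was -1.85. BAM1 (AT3G23920), a plastid beta-amylase associated with stress and with guard cells, had 950 and 2111 counts and a log2 ratio of 0.68 (0.57 to 0.79), past 2-fold after length correction only (1.03). BAM3 held 63.1% of the TPM of the 9 beta-amylase genes in wild type against 26.2% in the jmj16-labelled library, and BAM1 15.5% and 40.4%. BAM4 (AT5G55700) and BAM9 (AT5G18670), plastid members without catalytic activity, had log2 ratios of -0.18 (-0.40 to 0.05) and 0.30 (-0.18 to 0.81). BAM5 (AT4G15210), which acts outside the plastid, had only 5 and 16 counts, too few to place its log2 ratio of 1.11 (-0.31 to 3.01).

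The dikinases that open the granule surface were both lower as measured, and neither passed after length correction. GWD1 (AT1G10760), the glucan water dikinase, had 5536 estimated counts in wild type against 2120 in the jmj16-labelled library, or 99.8 and 29.0 TPM, and was 3.62-fold lower (3.44 to 3.81). At 4696 nt it is the longest transcript of the set, and its corrected log2 ratio was -0.80. PWD (AT5G26570), the phosphoglucan water dikinase that acts after it, had 1833 and 1090 counts, or 40.3 and 18.2 TPM, was 2.33-fold lower (2.16 to 2.52), and had a corrected value of -0.34. The phosphatase SEX4 (AT3G52180), which removes the phosphate again, had a log2 ratio of 0.25 (0.15 to 0.35), and its relative LSF1 (AT3G01510) one of -0.50 (-0.76 to -0.25). LSF1 overlaps CA1 in the annotation, a carbonic anhydrase gene with 15711 and 5500 counts, and how reads were divided between them cannot be told without a strand setting.

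Of the alpha-glucan phosphorylases, which release glucose 1-phosphate, the plastid form was lower and the cytosolic form was not. PHS1 (AT3G29320), the plastid enzyme, had 1152 estimated counts in wild type against 463 in the jmj16-labelled library, or 31.5 and 9.59 TPM, and was 3.45-fold lower (3.09 to 3.85), -1.13 after length correction. PHS2 (AT3G46970), the cytosolic enzyme and over both libraries the most read gene of the group, had 4522 and 4513 counts, or 124 and 93.9 TPM. Its log2 ratio was -0.47 (-0.53 to -0.41), or 0.17 after length correction. The transcripts are of nearly equal length, 3180 and 3168 nt. ISA3 (AT4G09020), a debranching enzyme of breakdown, had a log2 ratio of 0.04 (-0.08 to 0.16). The disproportionating enzymes DPE1 (AT5G64860), in the plastid, and DPE2 (AT2G40840), which handles maltose in the cytosol, had -0.10 and -0.75, and -0.02 and -0.01 after correction.

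Values for genes of the clock and of leaf cell types are given here, and their part in the differences was not tested. Of 9 clock genes 0 were higher and 1 was lower in the jmj16-labelled library, with a median log2 ratio of -0.69 and values from -2.04 (PRR7) to 0.63 (LHY). After length correction their median was -0.23, with 4 genes above 0 and 5 below. Their summed level was 384 TPM in wild type against 319 TPM in the jmj16-labelled library, and none was at 0. The 3 mesophyll markers all had log2 ratios below 0, at -0.57 for RBCS1A, -0.57 for CAB2 and -1.99 for CA1, and only CA1 was lower by the rule. Of 3 guard cell markers 2, KAT1 and FAMA, were lower, with summed levels of 24.4 and 16.8 TPM, and 0 were after length correction. Transcripts of other organs were scarce: the flower and seed markers SEP1, AP3 and CRA1 summed to 3.73 and 0.233 TPM, with both measured ones lower and CRA1 at 23 and 0 counts.

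Of 3 genes for transporters of the plastid envelope, 1 was higher and 2 were neither. GPT2 (AT1G61800), a glucose 6-phosphate/phosphate translocator known to be induced by sugar, had 4 estimated counts in wild type against 46 in the jmj16-labelled library. It was 7.45-fold higher (3.03 to 31.7), an interval widened by the few wild type counts, and its level stayed low at 0.218 and 1.90 TPM. GPT1, the translocator needed throughout the plant, had 18.8 and 27.6 TPM and a log2 ratio of 0.48 (0.30 to 0.67). APE2 (AT5G46110), the triose phosphate translocator that exports photosynthate by day, was the most abundant transcript of the whole set at 766 and 756 TPM (17088 and 22258 counts), with a log2 ratio of -0.09 (-0.12 to -0.06). MEX1 (AT5G17520), the maltose exporter of the night, had 602 and 676 counts, or 34.2 and 29.1 TPM, and a log2 ratio of -0.30 (-0.46 to -0.14).

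Sucrose synthesis was represented by sucrose phosphate synthases, of which 1 was lower and 2 were neither. SPS4F (AT4G10120) had 1753 estimated counts in wild type against 873 in the jmj16-labelled library, or 44.2 and 15.5 TPM, and was 2.78-fold lower (2.57 to 3.02). SPS1F (AT5G20280), with 1538 and 1345 counts or 36.2 and 24 TPM, had a log2 ratio of -0.66 (-0.77 to -0.56). SPS2F (AT5G11110), with 83 and 93 counts, had -0.31 (-0.75 to 0.14). These transcripts are long, from 3591 to 3654 nt, and after length correction the values were -0.68 for SPS4F, 0.15 for SPS1F and 0.50 for SPS2F, so that none passed. Within the family SPS4F went from 53.6% of the TPM to 37.7%, and SPS1F from 44.0% to 58.2%.

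Among 5 measured genes of sucrose cleavage, 1 cell wall invertase gene was higher, 1 vacuolar invertase gene was lower and 3 were neither. CWINV1 (AT3G13790), a cell wall invertase gene, had 14 estimated counts in wild type against 72 in the jmj16-labelled library. It was 3.61-fold higher (2.07 to 7.12), at the low level of 0.622 and 2.52 TPM. VI2 (AT1G12240), a vacuolar invertase gene and the most abundant transcript of the group, had 1278 and 763 counts, or 51.3 and 23.2 TPM. It was 2.32-fold lower (2.12 to 2.54). Length correction left CWINV1 at 1.93 and VI2 at -1.02. SUS1 (AT5G20830), a sucrose synthase, had 144 and 346 counts, or 4.30 and 7.84 TPM, and a log2 ratio of 0.79 (0.51 to 1.08), which became 1.34 with correction. SUS3 (AT4G02280) had 22 and 24 counts and a log2 ratio of -0.35 (-1.24 to 0.56), which counting did not separate from 0. AT1G62660, which the reference table does not name, had a log2 ratio of -0.12 (-0.44 to 0.20).

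The 8 sugar transporter genes had a median log2 ratio of 0.33, or 0.28 after length correction, with 2 higher, 1 lower and 5 neither. STP4 (AT3G19930), a monosaccharide/proton symporter known from sink tissue and from wounded or infected leaves, had 361 estimated counts in wild type against 1191 in the jmj16-labelled library, or 15.3 and 37.7 TPM, and was 2.38-fold higher (2.11 to 2.68). SUC1 (AT1G71880), a sucrose/proton symporter, had 1124 and 3199 counts, or 46.0 and 99.1 TPM, and was 2.05-fold higher (1.92 to 2.20). STP1 (AT1G11260), a monosaccharide/proton symporter whose transcript sugar is known to repress, went the other way with 2898 and 967 counts, or 104 and 26.3 TPM, and was 4.15-fold lower (3.86 to 4.47). After length correction the 3 values were 1.40, 1.21 and -1.73 on the log2 scale. STP13 (AT5G26340), a hexose symporter linked to stress and defence, had 2462 and 4676 counts, or 84.7 and 122 TPM, and a log2 ratio of 0.45 (0.38 to 0.52). Of the summed TPM of 5 STP genes, STP1 held 40.4% in wild type against 10.5% in the jmj16-labelled library, and STP13 held 32.9% and 48.5%.

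The genes of phloem loading were not past the rule. SWEET11 (AT3G48740), which with SWEET12 releases sucrose from phloem parenchyma, was the most abundant sugar transporter, with 5342 estimated counts in wild type against 12016 in the jmj16-labelled library, or 377 and 641 TPM. Its log2 ratio was 0.70 (0.65 to 0.74), and that of SWEET12 (AT5G23660) was 0.21 (0.13 to 0.30). SUC2 (AT1G22710), the symporter that loads companion cells, had 3320 and 3319 counts, or 148 and 112 TPM, a log2 ratio of -0.47 (-0.54 to -0.40). SUC2 held 74.1% of the TPM of 4 SUC genes in wild type against 51.6% in the jmj16-labelled library, where SUC1 came to 45.7%. ERDL6 (AT1G75220), a glucose exporter of the vacuole, had a log2 ratio of -0.38 (-0.55 to -0.22). Of 4 other markers of companion cells and phloem 1, AHA3, was lower and 0 were higher, with log2 ratios from -1.41 to 0.41 and summed levels of 278 and 310 TPM. PP2-A1, the only one of them above 0, held 69.8% of that sum in wild type against 87.4% in the jmj16-labelled library. AHA3 was no longer lower after length correction, at -0.74. Of 5 xylem markers 3 were higher, 0 lower, 1 neither and 1 not measured, with summed levels of only 2.50 and 7.80 TPM. The part of either tissue in the transporter values was not tested.

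**Figure D3:**
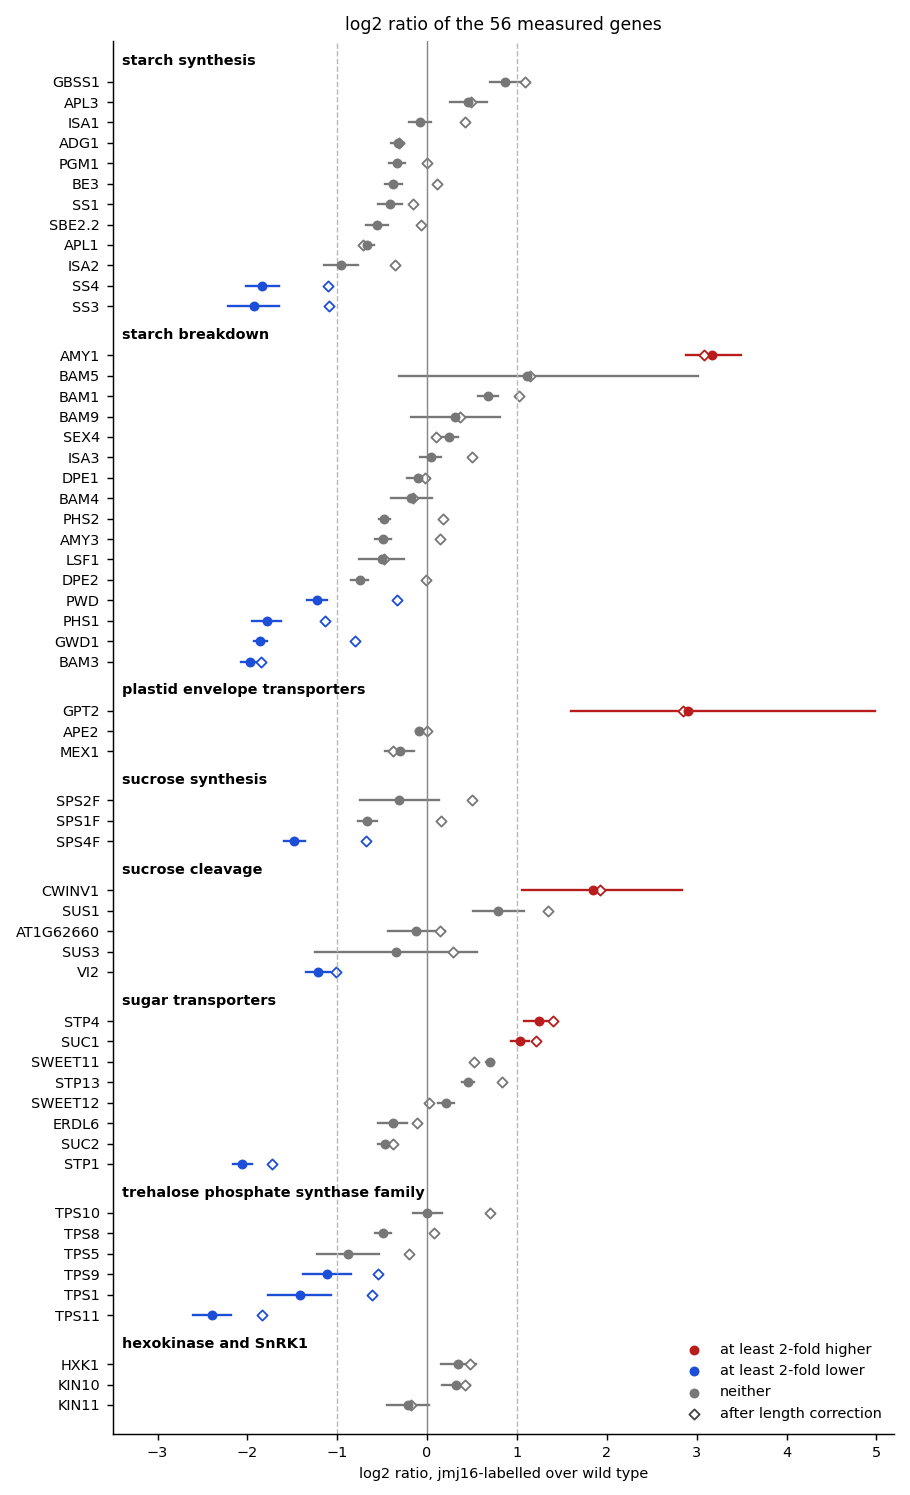
log2 ratio of scaled estimated counts for the 56 measured genes, jmj16-labelled over wild type, by role group. Filled circles are the ratios as measured with their 95% counting intervals, open diamonds the length-corrected ratios, and dashed lines mark 2-fold; among starch and trehalose phosphate genes most diamonds sit to the right of the circles, while those of AMY1, GPT2, CWINV1 and BAM3 stay close to them.

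The trehalose phosphate synthase family had a median log2 ratio of -0.996, or -0.37 after length correction, with 3 of 6 genes lower, 0 higher and 3 neither. TPS11 (AT2G18700), a class II member, was the lowest of all 56 genes, with 859 estimated counts in wild type against 227 in the jmj16-labelled library, or 25.6 and 5.11 TPM, 5.24-fold lower (4.53 to 6.10). Its corrected log2 ratio was -1.83. TPS9 (AT1G23870), also of class II, had 297 and 190 counts, or 8.75 and 4.24 TPM, and was 2.17-fold lower (1.80 to 2.61). TPS1 (AT1G78580), the member with proven synthase activity, had 204 and 106 counts, at 5.26 and 1.99 TPM, and was 2.66-fold lower (2.10 to 3.41). With length correction TPS9 and TPS1 came to -0.55 and -0.62 and no longer passed, which leaves TPS11 as the 1 lower gene of the group.

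TPS8, TPS9, TPS10 and TPS11 are class II members whose transcripts low sugar is known to raise, and their values here differed from one another. TPS8 (AT1G70290), the most abundant at 66.0 and 49.4 TPM (2241 and 2214 counts), had a log2 ratio of -0.49 (-0.57 to -0.40). TPS10 (AT1G60140), with 561 and 779 counts, had one of 0.00 (-0.16 to 0.16). Length correction took TPS8 to 0.08 and TPS10 to 0.70. TPS8, TPS9 and TPS11 have transcripts of 2979, 2973 and 2945 nt, so the trend with length is nearly the same for them. TPS5 (AT4G17770), a class II member that sugar is known to raise, had -0.88 (-1.22 to -0.54). After length correction it was at -0.20 (-0.54 to 0.14), an interval that includes 0. Of 7 class II genes TPS11 held 17.1% of the summed TPM in wild type against 5.42% in the jmj16-labelled library, and TPS8 held 44.1% and 52.4%.

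**Figure D4:**
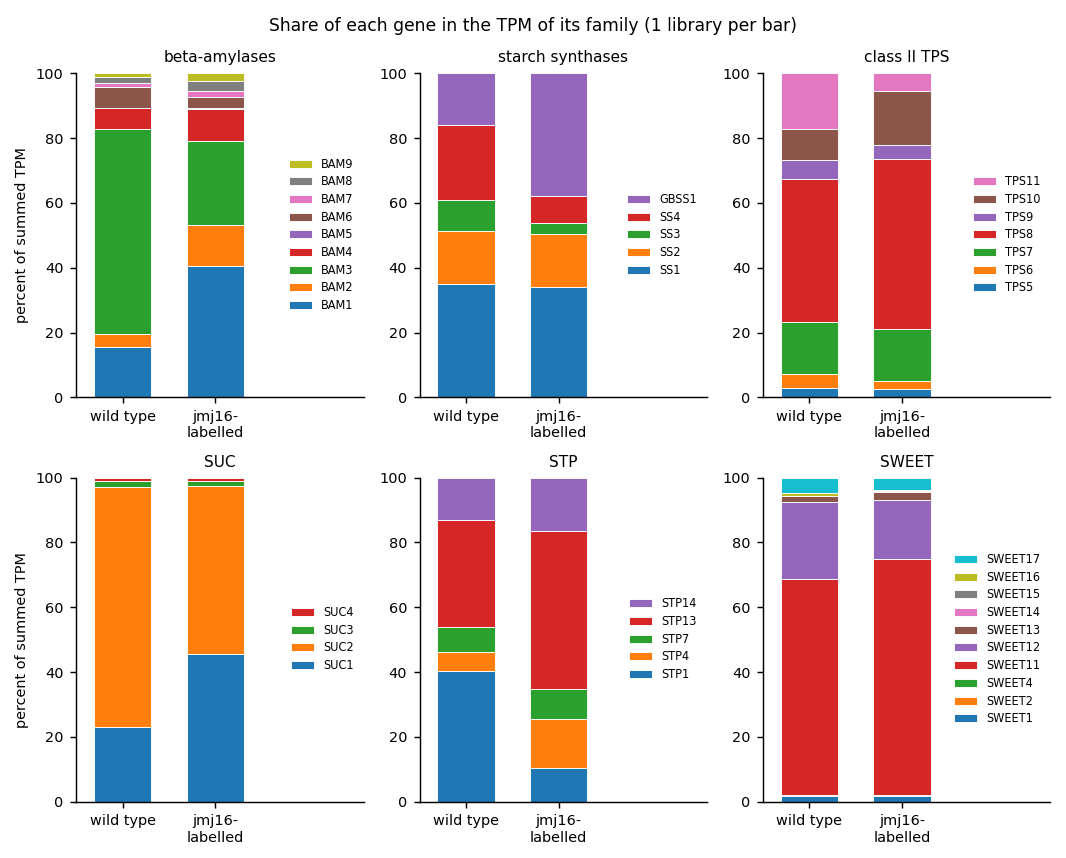
Percent of the summed TPM of each family contributed by each listed gene, wild type against jmj16-labelled, 1 library per bar. BAM3 goes from 63.1% to 26.2% of the beta-amylases, GBSS1 from 16.1% to 37.9% of the starch synthases, STP1 from 40.4% to 10.5% of 5 STP genes and SUC1 from 23.0% to 45.7% of 4 SUC genes, whereas SWEET11 leads 10 SWEET genes in both (66.6% and 72.6%).

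None of the 3 genes for energy sensors passed the rule. KIN10 (AT3G01090), a catalytic subunit of SnRK1, had 540 estimated counts in wild type against 933 in the jmj16-labelled library, or 23.6 and 31.4 TPM, and a log2 ratio of 0.32 (0.16 to 0.47). Its close relative KIN11 (AT3G29160) had -0.21 (-0.45 to 0.02). HXK1 (AT4G29130), the hexokinase that also senses glucose, had 352 and 622 counts, or 15.0 and 20.1 TPM, and a log2 ratio of 0.35 (0.16 to 0.54). Transcripts that SnRK1 or low sugar is known to raise were lower in the jmj16-labelled library in 4 of 5 cases, beside 10.6% of all measured genes. DIN6 had 229 and 34 counts (log2 ratio -3.21), DIN10 3730 and 914 (-2.50), SEN1 3424 and 1271 (-1.90) and AT3G15450 3523 and 2169 (-1.17), and DRM2 had a log2 ratio of -0.79. Their lengths run from 714 to 2767 nt, and all 5 were lower after length correction, beside 6.64% of all measured genes. Earlier results of these data were known when this list was drawn up, so it is no independent evidence.

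Several genes differed in which transcript model took the reads, although the split among models is an estimate that Salmon makes from the reads that tell them apart. TPS10 had nearly equal scaled levels in the 2 libraries as a locus. Of its reads, AT1G60140.5 took 97.3% in wild type against 35% in the jmj16-labelled library, and AT1G60140.6 took 0.520% and 63.2%. SEX4 shifted between models: AT3G52180.3 went from 38.4% to 2.67% and AT3G52180.1 from 9.07% to 48.6%. In SPS4F, AT4G10120.2 held 72% and 27.9%, with 1262 and 244 counts. AT3G01090.3 of KIN10 had 1.63 and 297 counts, and AT3G01090.1 kept 68.1% of the reads in the jmj16-labelled library. In KIN11 AT3G29160.2 held 56.7% and 17.2%. AT1G11720.2 was the only model of SS3 with reads in wild type and held 65.6% in the jmj16-labelled library. By contrast TPS8 kept AT1G70290.2 at 83.2% and 83.4%. In all, 26 of the 57 genes have several models and 31 have 1.

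**Figure D5:**
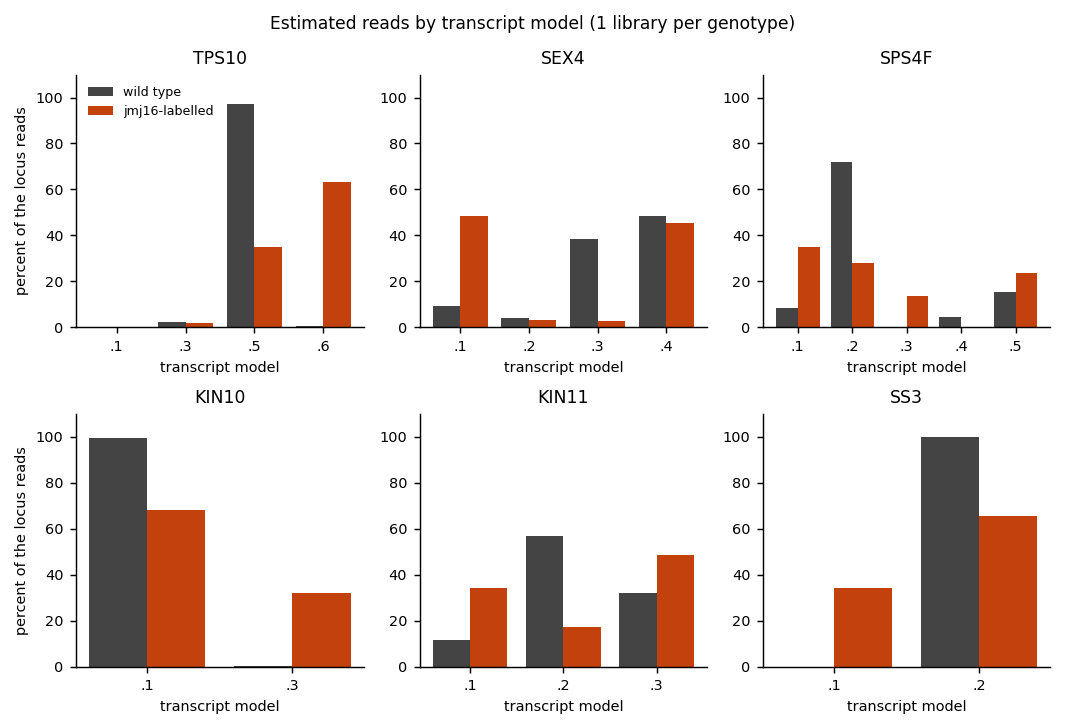
Percent of a locus's estimated reads assigned to each transcript model in wild type (grey) and jmj16-labelled (orange), 1 library each, for 6 genes with large shifts, chosen after their values were seen. The leading model differs between the libraries in TPS10, SEX4, SPS4F and KIN11, and is the same in KIN10 and SS3.

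Read assignment limits some of these values. In 11 of the 57 genes the summed count of a library was off a whole number by 0.01 or more, so that some reads were divided with other loci, and 5 of these were past the rule: SUC1 and STP4 among the higher genes, and PHS1, STP1 and TPS1 among the lower. The annotation has another locus overlapping 19 of the genes, 7 of them past the rule: AMY1, BAM3, SS3, PHS1, SPS4F, STP1 and TPS1. Of the overlapping neighbours in the tables, ATGP4 beside AMY1 had 519 and 1017 counts (log2 ratio 0.50), and AT4G17085 beside BAM3 had 14 and 23. The neighbour of STP1, AT1G11270, had 37.4 and 105 counts and a log2 ratio of 1.02, opposite in sign to STP1. RHM1 beside TPS1 had 241 and 307 counts.

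Of 73 other genes of the same pathways, listed by function, 58 were measured and 15 were not. Of the 58, 5 were higher, 4 lower and 49 neither, beside 7.22% higher and 10.6% lower of all measured genes. Their median log2 ratio was 0.19, and their transcripts were shorter than those of the 57, with a median of 1906 nt. SWEET4, a hexose transporter, had 4 and 37 counts and was 6.01-fold higher (2.40 to 25.8). C/VIF2, an inhibitor of invertase, had 222 and 719 counts and was 2.33-fold higher (2.01 to 2.73). AMY2, a cytosolic alpha-amylase, was 2.14-fold higher (1.87 to 2.46), the cell wall fructan exohydrolase gene cwINV6 2.02-fold higher (1.56 to 2.65), and BZIP11, a transcription factor whose translation sucrose represses, 2.43-fold higher (1.94 to 3.08). AMY2 and C/VIF2 no longer passed after length correction, at just under 1 and at 0.95, while cwINV3 (1.10) did. Of the lower genes, BAM6, a beta-amylase, had 303 and 138 counts and was 3.04-fold lower (2.48 to 3.75), and TPS6, of class II, 2.82-fold lower (2.24 to 3.59). TRE1, the trehalase, had 130 and 70 counts and was 2.57-fold lower (1.91 to 3.49), and the trehalose phosphate phosphatase gene TPPH 2.24-fold lower (1.37 to 3.80). After length correction TPS6 no longer passed (-0.88) and SWEET16 did (-1.13).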

How the data were processed

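The authors deposited, per leaf RNA library, 1 table of estimated counts per transcript model with the same models' TPM. Per the file headers these are Salmon output, and per the submitters' processing notes Salmon was used along with tools for the chromatin data and the build TAIR10. Which Salmon version and annotation release were used, and whether reads were paired, stranded or trimmed, is not given in the sources used here. Effective lengths are equal in both deposited tables, so TPM carries no correction specific to a library.

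Counts and TPM of 48359 models were summed over 27655 loci, and counts were rounded. Libraries were scaled by TMM (0.969 and 1.03; edgeR 4.0.16, R 4.3.3, for scaling only). Ratios of a gene between libraries carry 0.5 added counts and exact Clopper-Pearson 95% intervals. With 1 library per genotype no test was made. The length correction subtracts a lowess trend (span 0.3, statsmodels 0.14.6) of the log2 ratio on log10 length, where a locus's length is the mean of its models weighted by counts. The calculation was tested on simulated data. Alternatives were other scalings, TPM, added counts, minimum reads, folds, a stricter interval and the most abundant transcript alone. Every measured gene is named with its ratio. Those past the rule and the 2 most read per role group are given in full. Of the other pathway genes, up to 4 per group past the rule are named. The genes, lists and length correction were chosen with earlier results of these data known. Names came from a RefSeq table (TAIR10.1), which matched 27445 loci. Its coordinates are not printed. Promoter and protein comparisons that had been planned were not made, and sequences were not used here.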

Additional observations from a re-analysis of the deposited data

How the results depend on the processing

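No paired analysis was possible because each genotype has 1 library. With scaling by upper quartiles, by median of ratios or by total count, an added count of 5 and no minimum of reads, 5 of the 57 genes were higher and 12 lower, as reported. The median log2 ratio lay between -0.37 and -0.24 under every alternative tried except length correction, where it was 0.011. The higher genes numbered 3 with a minimum of 100 reads (GPT2 and CWINV1 were then not measured), 9 at a fold of 1.5, 2 at a fold of 4 (AMY1 and GPT2) and 8 with length correction. The lower genes numbered 2 at a fold of 4 (STP1 and TPS11) and 7 with length correction. At a fold of 1.5, APL1, ISA2, DPE2, SPS1F and TPS5 joined the lower genes. Of all 17151 measured genes, 2821 were higher and 3355 lower at a fold of 1.5, and 255 and 292 at a fold of 4. Length correction gave 1065 higher and 1138 lower of all genes, and the stricter interval 487 and 807. A minimum of 100 reads gave 747 and 1199 of 13618 genes. The most abundant transcript alone gave 1591 and 2094 of 16960 genes. With log2(TPM + 1) TPS9 was no longer lower (-0.90). From the most abundant transcript alone SUS1 was higher (1.01) and TPS10 lower (-1.47), and BAM5 was not measured. With the counting interval wholly beyond 2-fold, SUC1 and TPS9 dropped out. No gene past the rule changed sign under any alternative. Of the 73 other pathway genes, the higher ones numbered 11 at a fold of 1.5, 1 at a fold of 4 and 2 with the stricter interval. The lower ones numbered 2 with log2(TPM + 1), 9 from the most abundant transcript alone, 12 at a fold of 1.5, 0 at a fold of 4 and 2 with the stricter interval. Apart from changed thresholds and minima, the cause of these shifts was not tested. Counting limits BAM5, SUS3, GPT2 and CWINV1, whose intervals span more than 3-fold, and variation between plants was not measured.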

Other observations

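The ratio of one gene to another within a library does not depend on how the libraries are scaled. The pairs below were chosen after their values were seen, so they are descriptions, and their 95% intervals cover counting error only. The log2 changes come from estimated counts, not from the TPM shown, and their intervals are normal approximations. For BAM3 over BAM1 the ratio of TPM was 4.08 in wild type against 0.648 in the jmj16-labelled library, a log2 change of -2.65 (-2.80 to -2.50). For STP1 over STP4 it was 6.81 in wild type against 0.698 in the jmj16-labelled library, a log2 change of -3.31 (-3.51 to -3.11). For SUC2 over SUC1 it was 3.22 in wild type against 1.13 in the jmj16-labelled library, a log2 change of -1.51 (-1.63 to -1.39). For VI2 over CWINV1 it was 82.4 in wild type against 9.19 in the jmj16-labelled library, a log2 change of -3.11 (-3.94 to -2.27). Pairs of nearly equal transcript length also differed. TPS11 over TPS8 had a ratio of 0.387 in wild type against 0.103 in the jmj16-labelled library, with a log2 change of -1.90 (-2.13 to -1.68). PHS1 over PHS2 had 0.254 in wild type against 0.102 in the jmj16-labelled library, with a log2 change of -1.31 (-1.48 to -1.15). For SWEET12 over SWEET11 the change was smaller, -0.49 (-0.58 to -0.39).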
